A study of Mus musculus with 16 samples.

Results

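The 9 genes described here are *Mbp*, *Mobp*, *Mog*, *Mag*, *Cnp*, *Mal*, *Opalin*, *Ermn* and *Hapln2*, which oligodendrocytes use to build and maintain myelin. They were taken by symbol from the 32285 genes listed in the count matrices, and each symbol matched 1 row. The libraries are single-nucleus RNA-seq of hippocampi from 16 male mice, with 1 mouse in each. WT mice, labelled C57BL/6, had an age of 2 months and 23 days, whereas *Ifnar1*-/- mice (KO) had an age of 3 months and 3 days. *Ifnar1* encodes a subunit of the type I interferon receptor. In each genotype, 4 mice received the mouse STING agonist DMXAA and 4 received vehicle, by repeated intraperitoneal injection per the study's methods. Genotype coincided with age and with the purchased cohort, so these cannot be told apart in any comparison of KO with WT.

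Myelin is the layered membrane that oligodendrocytes wrap around axons, and it is needed for fast conduction. Compact myelin is held together by small basic proteins on its inner faces, of which *Mbp* and *Mobp* encode examples, whereas glycoproteins such as those of *Mog* and *Mag* sit on the outer surface of the sheath and next to the axon. The genes are switched on together when precursor cells mature, under transcription factors that include MYRF and SOX10. Nuclear RNA holds many unspliced transcripts, so the counts below describe nuclear RNA of these genes, not myelin or its proteins.

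After filtering, 108878 nuclei remained, at 5163 to 9237 per library, in 31 clusters formed without the 9 genes. Oligodendrocytes numbered 18218 nuclei, at 842 to 1453 per library, with a median of 2014 to 2706 unique molecular identifiers (UMIs, counted molecules) per nucleus in each library. Libraries shared few barcodes, with 3033 of 152013 barcode sequences found in 2 or more libraries. The library labelled WT DMXAA replicate 3 stood apart. *Ifnar1* over all its nuclei was at 13.7 counts per 1000000 UMIs (CPM), against 17.0 to 19.4 in the other 7 WT libraries and 10.6 to 12.8 in the 8 KO libraries, where reads on the gene were still counted. A sum of 5 interferon-stimulated genes in its microglia (*Ifit1*, *Ifit2*, *Ifit3*, *Irf7* and *Isg15*, chosen after their values were seen) was 60.7 CPM, above the 0 to 12.5 of WT vehicle and the 0 to 1.98 of KO libraries but below the 135 to 430 of the other WT DMXAA libraries. Where leaving this library out changed a count of member calls in oligodendrocytes, both counts are given.

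For 8 of the 9 genes a promoter sequence was given (RefSeq, GRCm38.p6, 250 bases before to 50 bases after the transcription start), and 5 of them are shown in part. They are shown because *Cnp*, *Mog*, *Mag* and *Hapln2* share a MYRF core (CTGGNAC, read on either strand) upstream of the start, and *Mobp* lacks that core but holds the most copies of the SOX core described next. Capitals mark the MYRF core in the first 4 sequences and the SOX core (ACAAAG, either strand) in the last. All are written 5′ to 3′ on the strand of the gene.
*Cnp*, chr11:100574839-100574888, plus strand: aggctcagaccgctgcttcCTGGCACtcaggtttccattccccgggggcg
*Mog*, chr17:37023449-37023498, minus strand: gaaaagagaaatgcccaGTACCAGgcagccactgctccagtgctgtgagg
*Mag*, chr7:30914914-30915038, minus strand: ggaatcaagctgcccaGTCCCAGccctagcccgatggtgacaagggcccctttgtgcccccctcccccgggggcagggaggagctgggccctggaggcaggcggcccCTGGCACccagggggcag
*Hapln2*, chr3:88027612-88027671, minus strand: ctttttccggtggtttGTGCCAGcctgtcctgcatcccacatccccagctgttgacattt
*Mobp*, chr9:120149492-120149631, plus strand: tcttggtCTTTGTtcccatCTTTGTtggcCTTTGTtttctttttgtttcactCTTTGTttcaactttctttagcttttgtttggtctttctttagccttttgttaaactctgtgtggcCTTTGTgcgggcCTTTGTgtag

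The MYRF core was found in 5 of the 8 promoters (*Hapln2*, *Mag*, *Cnp*, *Mog* and *Opalin*), and 19.3% of all 32851 promoters of the same length hold it. *Mag* and *Cnp* each held 2 copies, and the copy in *Opalin* lay 37 bases after the start. The SOX core was found in 4 of 8 (*Mag*, *Mobp*, *Cnp* and *Opalin*), with 6 copies in *Mobp*, against 18.7% of all promoters. An E-box (CANNTG) was present in 4 of 8, against 72.3%. The core of the interferon-stimulated response element (GAAANNGAA, either strand) was in 0 of 8, against 8.56%. *Ermn* and *Mal*, which lack the MYRF core in this window, were lower in all KO vehicle than in all WT vehicle libraries, as were the 5 genes that hold it and 28.1% of all genes tested. *Mobp*, which also lacks the core, overlapped between these groups. The part of the core in the genotype difference was not tested. These are matches of letters in a short window. For *Mag* the first of 3 listed start sites was used.

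Oligodendrocyte nuclei were named by 11 other markers of the lineage, so high levels of these follow from the naming. They include the regulator *St18*, at 4157 CPM on average against at most 119 in another class (pericytes). *Cldn11*, a claudin of the myelin sheath, was at 475 against 62.3 CPM (fibroblasts). Gaps were smaller for *Aspa*, at 856 against 214.5 CPM (fibroblasts), and *Tmem63a*, at 231 against 76.2 CPM (microglia). After each nucleus was thinned to 1000 UMIs, 97.6% of 17899 oligodendrocyte nuclei held an *Mbp* UMI. The same share was 72.2% for *Mobp*, 59.8% for *Mag*, 57.7% for *Mog* and 40.1% for *Mal*. It was 26.9% for *Opalin*, 20.7% for *Hapln2*, 20.02% for *Ermn* and 16.6% for *Cnp*. Excitatory neurons do not make myelin, although the *Mbp* locus also encodes Golli transcripts, which neurons are known to use and these counts do not separate. In them the thinned shares lay between 0.0938% and 0.766% for 8 members, with *Mbp* at 9.06% apart from them. Without thinning, 99.7% of oligodendrocytes and 48.2% of the deeper excitatory neurons held an *Mbp* UMI. The shares of excitatory neurons, here and below, come from 12800 nuclei drawn at random, with equal numbers from each library.

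The first comparison asks whether loss of *Ifnar1* went with different myelin transcripts in mice given vehicle. Of the 9 genes, 5 were lower in KO oligodendrocytes, namely *Ermn*, *Hapln2*, *Cnp*, *Mal* and *Mog*, with levels between 0.382 and 0.632 times those of WT. For the 4 others the test was not passed. Across the transcriptome such calls were common, since 29.2% of the 12114 genes tested passed in either direction and 16.3% were lower. All 8 vehicle libraries are shown in the plots of levels by library.

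*Ermn* encodes ermin, an actin-binding protein of late oligodendrocytes. WT vehicle libraries had 275, 312, 331 and 339.5 CPM and KO vehicle libraries 131, 88.6, 126 and 134 CPM. No KO library reached the lowest WT library, and the log2 fold change was −1.23 ± 0.30 (SE, n = 4 per group, adjusted p = 0.00815 by edgeR's quasi-likelihood test with Benjamini-Hochberg adjustment over all genes). *Hapln2*, whose product is a link protein of the matrix at nodes of Ranvier, had 327, 411, 342 and 299.7 CPM in WT and 150.0, 115, 177 and 161 CPM in KO. These groups were also apart, with a log2 fold change of −1.03 ± 0.30 (edgeR adjusted p = 0.0188).

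*Cnp* encodes a cyclic nucleotide phosphodiesterase of the cytoplasm-filled channels of myelin. Its levels were 219.7, 216, 306 and 352 CPM in WT and 127, 116, 119.8 and 119 CPM in KO. The KO libraries were closely grouped, with an SD of 4.63 CPM against 67.1 CPM in WT, and the log2 fold change was −1.01 ± 0.24 (edgeR adjusted p = 0.00623). *Mal*, which encodes a proteolipid that sorts proteins to the myelin membrane, had 669.5, 581, 811 and 879 CPM in WT and 385, 384, 363 and 365 CPM in KO. The groups did not overlap (−0.81 ± 0.23, edgeR adjusted p = 0.0179). *Mog*, for the glycoprotein of the outermost myelin surface, had 1242, 1358, 1143 and 1031 CPM in WT and 714, 731, 783 and 787 CPM in KO. Its fold change was smaller (−0.50 ± 0.17) and its adjusted p of 0.0419 (edgeR) lay close to the threshold. Leaving out any 1 vehicle library except WT vehicle replicate 4, or any of KO DMXAA replicates 1 to 3, ended the call of *Mog*, with adjusted p between 0.0521 and 0.113. *Hapln2* was no longer called without WT vehicle replicate 2 (edgeR adjusted p = 0.0524) or KO vehicle replicate 2 (0.0611), nor *Mal* without WT vehicle replicate 4 (0.0547).

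*Mag*, for an adhesion protein facing the axon, and *Opalin*, for a sialylated membrane protein of mature oligodendrocytes, were also below all WT vehicle libraries in all 4 KO vehicle libraries. *Mag* ranged from 783 to 856 CPM in KO and from 1042 to 1242 CPM in WT, and *Opalin* from 284 to 309 CPM and from 340.4 to 509.6 CPM. Their log2 fold changes of −0.25 ± 0.13 and −0.28 ± 0.13 did not pass the test over all genes (edgeR adjusted p = 0.168 and 0.103). The basic protein genes lay the other way. *Mbp* had 4477, 4483, 3961 and 4519 CPM in WT vehicle and 4525, 4566, 4656 and 4771 CPM in KO vehicle libraries, with every KO library above every WT library by a narrow margin. Its log2 fold change was 0.25 ± 0.11 (edgeR adjusted p = 0.0923), and DESeq2 called it higher (0.27, adjusted p = 0.0441). *Mobp* had 1284 to 1572 CPM in WT and 1441 to 1652 CPM in KO, which overlapped (0.33 ± 0.14, edgeR adjusted p = 0.0817). Thus groups were apart and lower in KO for 7 members, against 28.1% of all genes, and apart and higher for 1, against 12.8%.

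**Figure D1:**
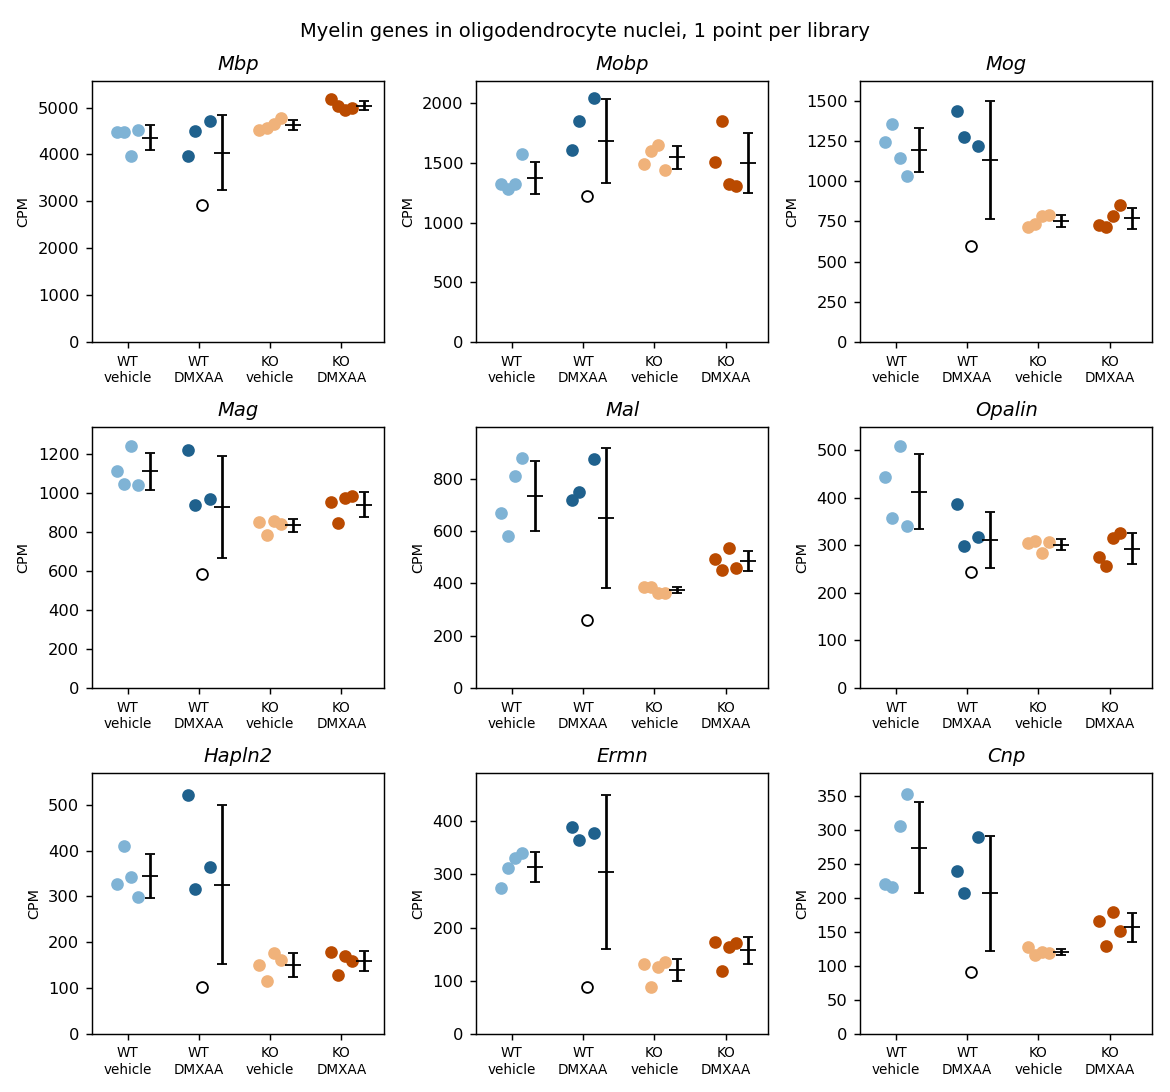
Level of each of the 9 genes in oligodendrocyte nuclei, in CPM on a linear axis from 0, with 1 point per library (n = 4 per group). Horizontal bars give the mean and vertical bars the SD. The open circle is the library labelled WT DMXAA replicate 3, which lies below all 8 KO libraries for every gene, and KO points lie below the other WT points for *Mog*, *Mal*, *Hapln2*, *Ermn* and *Cnp*.

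The number of calls differed between choices of libraries. With the 8 vehicle libraries fitted alone, all 9 genes were called, 7 lower and *Mbp* and *Mobp* higher, and so were 45.9% of all genes. With all libraries but WT DMXAA replicate 3, again 9 were called, beside 45.9% of genes. The scaling between libraries shifted all genes. By edgeR's TMM scaling the median log2 fold change over all genes was −0.04, with 1564 genes called higher and 1973 lower, and without it the median was −0.21, with 904 higher and 2905 lower. Without TMM the log2 fold changes themselves were 0.08 for *Mbp* and 0.17 for *Mobp*, both above that median and not called (edgeR adjusted p = 0.586 and 0.374). Without TMM 7 members were called, all lower, with *Mag* (−0.42, edgeR adjusted p = 0.0472) and *Opalin* (−0.46, 0.024) added to the 5.

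The genotype difference of a gene went with its genomic span, for the members as for other genes. *Hapln2* (5.83 kb; GENCODE M21, mm10, chromosome 3, 88021750 to 88027583) and *Ermn* (7.75 kb; chromosome 2, 58045113 to 58052864) are the shortest, and all genes under 10 kb had a median log2 fold change of −0.83, with 45.8% called lower. *Mog* (12.7 kb; chromosome 17, 37010743 to 37023398), *Opalin* (15.4 kb; chromosome 19, 41061710 to 41077113), *Mag* (15.7 kb; chromosome 7, 30899176 to 30914873), *Cnp* (16.8 kb; chromosome 11, 100574904 to 100591729) and *Mal* (23.5 kb; chromosome 2, 127633226 to 127656695) fall among genes of 10 to 30 kb, whose median was −0.22, with 16.7% called lower. *Mobp* (31.8 kb; chromosome 9, 120149707 to 120181484) belongs to genes of 30 to 100 kb, whose median was 0.16. *Mbp* (110 kb; chromosome 18, 82475146 to 82585637) belongs to genes over 100 kb, whose median was 0.55, with 37.2% called higher.

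Relative to the median of genes of like span, *Cnp* was at −0.80 and *Mal* at −0.59 on the log2 scale, and 5.29% and 10.5% of the genes in that span class had lower fold changes. *Ermn* was at −0.39, *Mbp* at −0.31, *Mog* at −0.28 and *Hapln2* at −0.20 relative to their own span classes, of which between 21.02% and 38.3% of genes were lower. *Opalin* (−0.07) and *Mag* (−0.03) lay close to the median of theirs, and *Mobp* was at 0.18. Across the 9 members the Pearson correlation of log10 span with the log2 fold change was 0.76, and across 12107 genes it was 0.71. The points share libraries and depth, and genes are not independent replicates. A like gradient with span was seen between libraries of the same genotype, age and treatment. For WT DMXAA replicate 3 minus the other 3, in log2(CPM + 1), the medians were −1.02, −0.37, 0.09 and 0.60 from the shortest to the longest span class. All 9 members lay below the median of their span class there, with *Mbp* at −0.58 and *Mobp* at −0.57. The part of span in the genotype difference of the members was not tested.

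**Figure D2:**
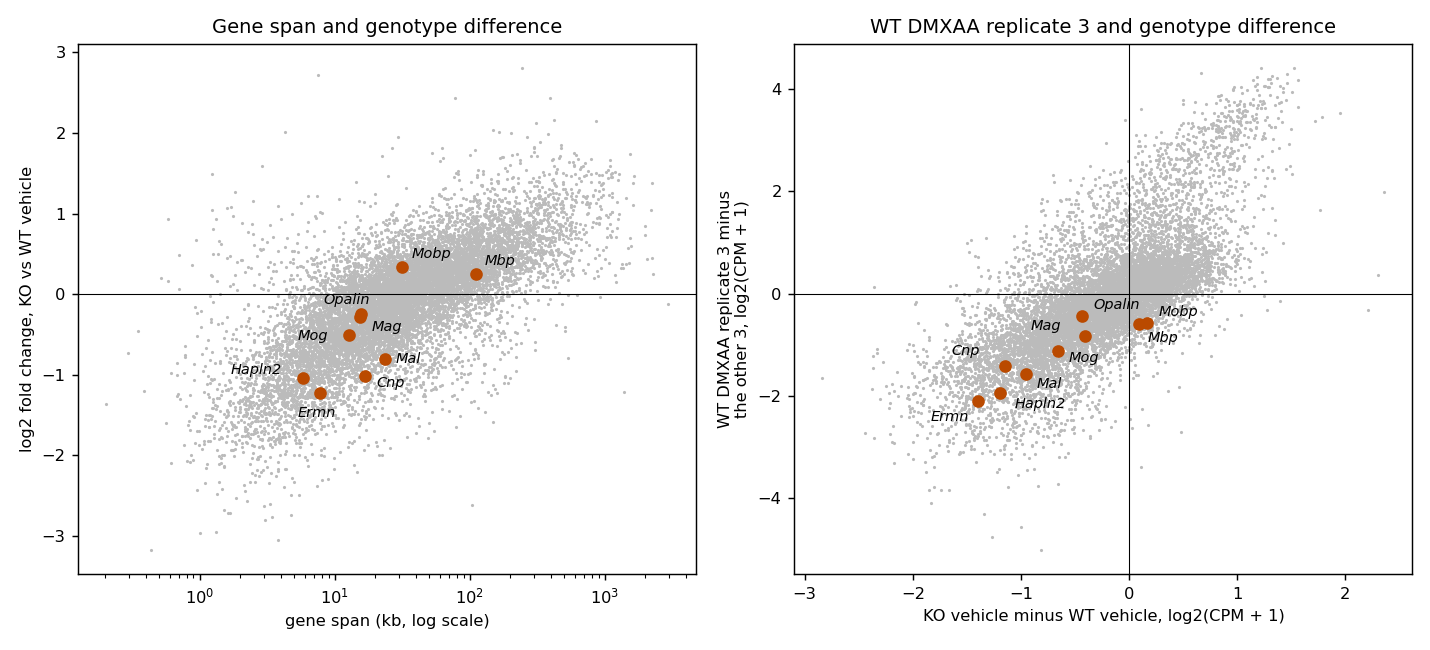
Left, the genomic span of each of the 12107 tested genes with an annotated span (kb, log axis) against its log2 fold change in KO over WT vehicle oligodendrocytes. Right, all 12114 genes tested by their KO vehicle minus WT vehicle difference and by the difference of WT DMXAA replicate 3 from the other 3 WT DMXAA libraries, both in log2(CPM + 1). Grey points are these genes and orange points the 9 myelin genes, which lie within the cloud of grey points in both panels. In the right panel all 9 lie below 0 on the vertical axis, and *Mbp* and *Mobp* lie above 0 on the horizontal axis.

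Over both treatments, KO against WT gave 5 lower members and 1 higher. *Ermn* (−1.08 ± 0.21, edgeR adjusted p = 0.00107), *Hapln2* (−1.02 ± 0.21, 0.00157), *Cnp* (−0.69 ± 0.17, 0.00384), *Mal* (−0.60 ± 0.16, 0.00837) and *Mog* (−0.52 ± 0.12, 0.0039) were lower in KO, and *Mbp* was higher by 0.29 ± 0.08 (0.00652). The background was 41.9% of genes called, 24.4% lower and 17.5% higher. Without TMM, where the median over all genes moved from −0.05 to −0.14, *Mbp* was at 0.20 (edgeR adjusted p = 0.0511) and *Mobp* at −0.0016, against 0.09 with TMM. The calls without TMM were then 6 lower members and 0 higher, beside 42.9% of genes. *Opalin* (−0.27, edgeR adjusted p = 0.0373) was added to the 5. Without WT DMXAA replicate 3, 8 members were called, 7 lower and *Mbp* higher, beside 60.7% of genes. The 8 KO libraries then lay below all 7 WT libraries for *Mog*, *Cnp*, *Mal*, *Ermn* and *Hapln2*, which held for 14.5% of genes.

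DMXAA in WT mice moved 0 of the 9 genes past the threshold, and only 3 genes of 12114 (0.0248%) were called. The test was edgeR's, and DESeq2 also called 0 members, beside 22 genes. In counts simulated for this comparison, edgeR recovered 60 of 100 genes changed by 1 on the log2 scale. It recovered 97 of 100 changed by 2, so smaller changes could be missed. The changed genes were drawn at random and no genotype difference was simulated, so recovery for the 9 members themselves was not measured. At an unadjusted p under 0.05 there were 675 genes, among them *Mobp* and *Opalin*. The 4 DMXAA libraries overlapped the 4 vehicle libraries for all 9 members, and groups were apart in 3.18% of genes.

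*Mobp* had 1610.2, 1854, 1227 and 2041 CPM in WT DMXAA replicates 1 to 4, against 1322, 1284, 1323 and 1572 CPM with vehicle. All but replicate 3 were above every vehicle library, and the log2 fold change was 0.41 ± 0.14 (95% interval 0.11 to 0.70, edgeR adjusted p = 0.639). *Opalin* had 387, 298, 244 and 318 CPM with DMXAA and 443, 358, 509.6 and 340.4 CPM with vehicle. Its levels overlapped and the log2 fold change was −0.28 ± 0.13 (95% interval −0.55 to −0.01, edgeR adjusted p = 0.877). For the other 7 members the log2 fold change lay between −0.29 (*Cnp*, 95% interval −0.79 to 0.20) and 0.06 (*Ermn*, −0.56 to 0.68). For *Mbp* it was 0.0048, with an interval of −0.22 to 0.23.

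Without replicate 3 the WT comparison had 314 calls (2.57% of genes), and *Mobp* was the 1 member among them, at 0.51 (edgeR adjusted p = 0.0312). *Mobp* and *Ermn* were then apart and higher with DMXAA, against 3.54% of genes. *Ermn* had 389.8, 365 and 377 CPM in the 3 remaining DMXAA libraries and 275 to 339.5 CPM with vehicle, and its log2 fold change of 0.36 did not pass (edgeR adjusted p = 0.12). Replicate 3 had 87.9 CPM of *Ermn*.

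In KO mice DMXAA gave 0 calls among the members and 0 among all genes (0%) by edgeR. DESeq2 also gave 0, and 449 genes, with 0 members, were at an unadjusted p under 0.05 by edgeR. Without WT DMXAA replicate 3, which is not in this comparison but enters the fit, these were 1536 genes and 3 members, and with the 8 KO libraries alone 1465 genes and 4 members, of which 0 members were called in either fit. *Mal*, *Cnp* and *Mbp* were apart and higher with DMXAA, against 3.97% of genes. *Mal* had 492, 453, 535 and 461 CPM with DMXAA and 385, 384, 363 and 365 CPM with vehicle (log2 fold change 0.34 ± 0.23, edgeR adjusted p = 0.948). *Cnp* had 166, 129, 179 and 151 CPM against 127, 116, 119.8 and 119 CPM (0.34 ± 0.24, 0.948). For *Mbp* the levels were 5187, 5042, 4957 and 4983 CPM with DMXAA, above the 4525 to 4771 CPM with vehicle, and the fitted change was 0.10 ± 0.11 (0.948).

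The effects of DMXAA in the 2 genotypes were compared by an interaction term, which called 0 members and 0 genes (0%) by edgeR. DESeq2 called 0 members and 6 genes, and 668 genes were at an unadjusted p under 0.05 by edgeR. Of the members, *Mobp* had a difference of −0.48 ± 0.20 in KO relative to WT (95% interval −0.90 to −0.06, unadjusted p = 0.0269, edgeR adjusted p = 0.79), and without WT DMXAA replicate 3 it was −0.58 (edgeR adjusted p = 0.427). For *Cnp* it was 0.64 ± 0.33 (−0.06 to 1.34, edgeR adjusted p = 0.79), and without WT DMXAA replicate 3 it was 0.41. The intervals of the other 7 members included 0, and the widest reached 1.18 for *Ermn*.

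**Figure D3:**
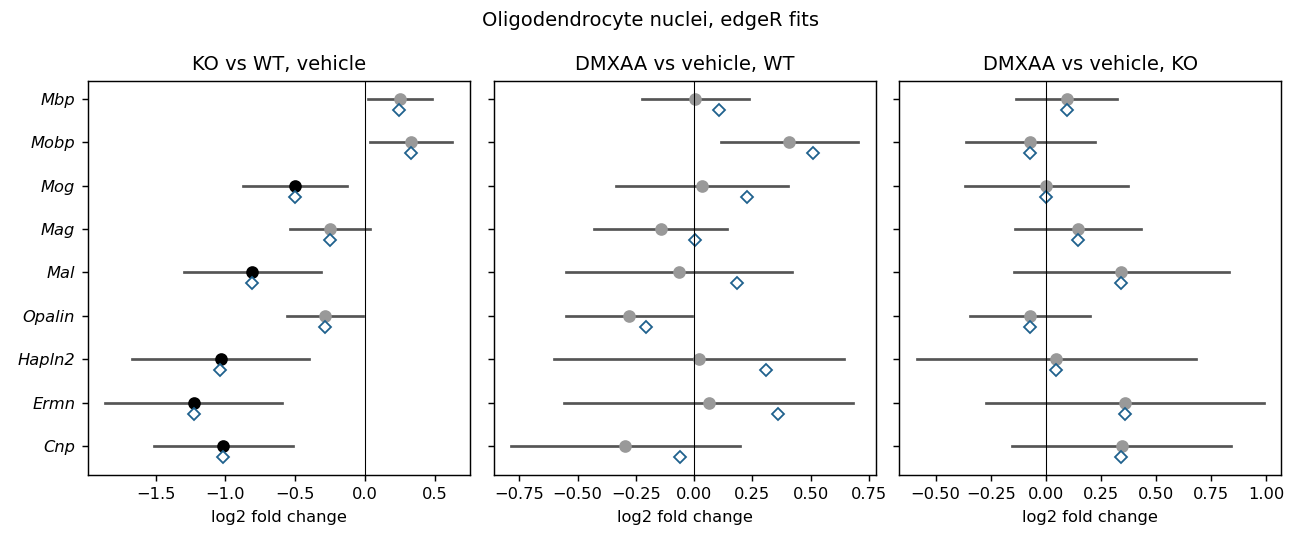
Log2 fold change of the 9 genes in oligodendrocyte nuclei for KO against WT vehicle, DMXAA against vehicle in WT, and DMXAA against vehicle in KO, from edgeR fits to 16 libraries. Circles with lines give the fold change and its 95% interval (black where called, grey where not), and open diamonds the value without WT DMXAA replicate 3. Black circles appear for *Mog*, *Mal*, *Hapln2*, *Ermn* and *Cnp* in the first panel and nowhere else, and in the WT panel all diamonds lie to the right of their circles.

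The library labelled WT DMXAA replicate 3 set much of the spread of the WT DMXAA group. Its level was 0.233 times the mean of the other 3 libraries for *Ermn*, 0.252 for *Hapln2*, 0.336 for *Mal*, 0.371 for *Cnp* and 0.457 for *Mog*. The smallest gap was for *Opalin*, at 0.731 times. All 9 members were lower in it than in each of the 8 KO libraries. For *Ermn* the margin was narrow, at 87.9 CPM against 88.6 CPM in KO vehicle replicate 2. The share of all genes that were lower in this way was not counted. The differences of this library from the other 3 had the same sign as KO minus WT vehicle for 7 of 9 members, all but *Mbp* and *Mobp*, and for 78.6% of all genes. The Pearson correlation of these differences was 0.91 over the members and 0.73 over all 12114 genes, and no library entered both differences.

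Other readings of the oligodendrocytes differed between libraries too, some of them with replicate 3 near the KO libraries and some not. *Malat1*, an abundant nuclear RNA, was at 46589 CPM in WT DMXAA replicate 3, at 92523 to 156157 CPM in the other WT libraries and at 20588 to 46491 CPM in KO libraries. The mitochondrial share of UMIs in a nucleus, averaged over nuclei, was 0.0916% in replicate 3, 0.196% to 0.499% in other WT libraries and 0.148% to 0.239% in KO libraries. The summed level of 11 microglial markers in oligodendrocyte nuclei was 88.2 to 116 CPM in WT and 62.7 to 79.9 CPM in KO. The sum of 10 inhibitory neuron markers was 1856 to 2691 CPM in WT and 2736 to 3040 CPM in KO. For both sums all WT libraries, replicate 3 included, lay on the same side of the KO libraries. The sums of the other marker lists overlapped between genotypes. No marker was at 0 in all libraries. The part of these readings in the differences of the members was not tested.

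Oligodendrocytes fell into 2 clusters, although the 9 genes had no part in the clustering. One held 8789 nuclei, 96.0% of them WT, and the other 9429 nuclei, 19.1% of them WT. Of the oligodendrocytes of each library, the first held 83.0% to 99.0% in 7 WT libraries, 0 of 1267 in WT DMXAA replicate 3 and 0.524% to 13.3% in KO libraries. Summed over all nuclei of a cluster, so that libraries count by their UMIs, *Hapln2* was at 378 CPM in the first and 149.9 CPM in the second, *Ermn* at 347 and 137 CPM, *Mal* at 764 and 412 CPM, and *Mog* at 1260.3 and 755 CPM. *Mag* had 1063 and 872 CPM, *Mobp* 1569 and 1487 CPM, and *Mbp* 4275 and 4669 CPM. These are descriptions of clusters that libraries fill unequally, and no test was run on them. The split was not particular to oligodendrocytes. Among excitatory neurons, one cluster held 9986 nuclei, 19.45% of them WT, and another 8817 nuclei, 95.16% of them WT. The other excitatory clusters were 52.21% to 62.6% WT.

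Genes that act beside the 9 in myelin were read from 4 lists. Of 23 other myelin and node proteins, 8 were higher and 7 lower in KO over both treatments, with a median log2 fold change of 0.01 against −0.05 over all genes. Of all genes, 17.5% were higher and 24.4% lower in this comparison, 13.1% and 29.8% without TMM and 28.4% and 32.3% without WT DMXAA replicate 3, and the counts of all 4 lists are to be read against these shares. Among those higher were *Ninj2* (0.87), *Nfasc* (0.68, whose glial form joins the sheath to the axon at the paranode), *Bcas1* (0.53), *Tppp* (0.36), *Tspan2* (0.28), *Pllp* (0.22) and *Cntn2* (0.21). Among those lower were *Cmtm5* (−0.995), *Cryab* (−0.88, a small heat shock protein), *Omg* (−0.69), *Gjb1* (−0.62), *Gjc3* (−0.53) and *Cd9* (−0.51). Without TMM the split was 5 higher and 11 lower, and without WT DMXAA replicate 3 it was 8 and 11.

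Of 13 genes of myelin lipid synthesis, 2 were higher and 3 lower. *Fa2h* (0.35, fatty acid hydroxylation) and *Ugt8a* (0.19, galactolipid synthesis) were higher, and *Scd2* (−0.45, fatty acid desaturation) and *Cers2* (−0.45, ceramide synthesis) were among those lower. Without TMM the counts were 1 higher and 4 lower, and without replicate 3 they were 2 higher and 6 lower. Of 15 lineage regulators tested, 6 were higher and 6 lower. *Zfp536* (0.74), *Tcf7l2* (0.49), *Zeb2* (0.37), *St18* (0.20), *Myrf* (0.20) and *Yy1* (0.19) were higher, whereas *Nkx6-2* (−0.83), *Olig1* (−0.75), *Zfp488* (−0.67), *Sox10* (−0.66), *Nkx2-2* (−0.55) and *Sox8* (−0.51) were lower. Without TMM, 3 regulators were higher and 7 lower, and without replicate 3, 6 and 7. *Myrf* and *Sox10*, which both drive the members in development, were thus called in opposite directions with TMM.

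Of 7 genes of newly formed oligodendrocytes tested, *Tns3* (0.70), *Fyn* (0.54), *Bcas1* (0.53) and *Tcf7l2* (0.49) were higher in KO and 0 lower, with the same counts without TMM or without replicate 3. Of these, *Bcas1* and *Tcf7l2* were already counted above, among myelin proteins and regulators. Calls also differed by span, since 42.4% of genes over 100 kb were higher in this comparison and 2.13% lower. The part of span in the counts of the lists was not tested. Under DMXAA 0 genes of any list were called by edgeR in either genotype with all libraries. Without replicate 3, *Anln* (0.67, edgeR adjusted p = 0.00395) and *Gjc3* (0.36, 0.0333) among myelin proteins and *Zfp488* (0.85, 0.0321) among regulators were called higher in WT, beside 1.16% of all genes. Among the largest log2 fold changes in WT were −0.74 for *Pmp22* and −0.65 for *Cryab* among myelin proteins, 0.38 for *Fads2* in lipid synthesis, 0.72 for *Zfp488* and 0.32 for *Tcf7l2* among regulators, and −0.27 for *Gpr17* beside *Tcf7l2* in the list of newly formed cells. *Zfp488* was closest to a call in those, at an edgeR adjusted p of 0.522.

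The share of oligodendrocytes among nuclei was 16.3% ± 2.58 (SD, n = 4) with vehicle and 18.2% ± 3.26 with DMXAA in WT, a difference of 1.93 percentage points (two-sided exact permutation test, p = 0.4, adjusted p = 0.4). In KO it was 15.6% ± 0.629 and 17.2% ± 2.15, a difference of 1.65 points (exact permutation p = 0.2, adjusted p = 0.4). The smallest p this design allows is 0.0286.

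Transcripts of the members were also counted in nuclei of other classes, where the part of free RNA carried into droplets was not tested. Expressed as a percent of the oligodendrocyte level of the same gene, the median over the 9 members was 0.38% in excitatory neurons and 0.439% in inhibitory neurons. It was 0.962% in astrocytes, 1.02% in oligodendrocyte precursors, 1.82% in microglia, 2.44% in endothelial cells and 4.35% in pericytes. Members differed in this percent within a class. *Cnp* was at 3.49% in excitatory neurons, 4.02% in inhibitory neurons, 7.75% in precursors and 9.04% in astrocytes, and it had the highest percent of the 9 in all 16 libraries in each of the last 3. *Mag* was at 3.53% in microglia, above the median of the members in 14 of 16 libraries.

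*Mbp* stood apart from most members in excitatory neurons. Its level there was 93.1 CPM ± 12.6 (SD, n = 16), or 2.06% of the oligodendrocyte level, which is 5.42 times the median of the members in that class, against 0.774% (35.0 CPM) in inhibitory neurons. It was present in all 10 excitatory clusters, at 45.3 to 133 CPM, where *Mobp* ranged from 3.81 to 9.09 CPM. In precursors, which start to make myelin genes as they mature, *Mbp* was at 91.4 CPM, or 2.02%.

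*Mal* had the highest percent in endothelial cells, which numbered 322 nuclei. Over the 8 libraries with at least 20 of them it averaged 166 CPM ± 90.2 (SD), with 217 ± 74.0 CPM in 5 WT libraries and 81.1 ± 12.6 CPM in 3 KO libraries. With smaller libraries included the genotypes overlapped, since KO vehicle replicate 3 had 274 CPM from 13 nuclei. The mean over the 8 was 29.3% of the oligodendrocyte level. A *Mal* UMI was found in 93 of 322 nuclei, or 28.9% (95% exact binomial interval 24.0% to 34.2%, counting error only), against 13.7% for *Mbp*, 5.9% for *Mog* and 3.11% for *Cnp*. Of the 12800 excitatory neurons drawn for this count, 2.99% held a *Mal* UMI. After thinning to 1000 UMIs the share was 11.3% in endothelial cells and 0.446% in excitatory neurons.

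**Figure D4:**
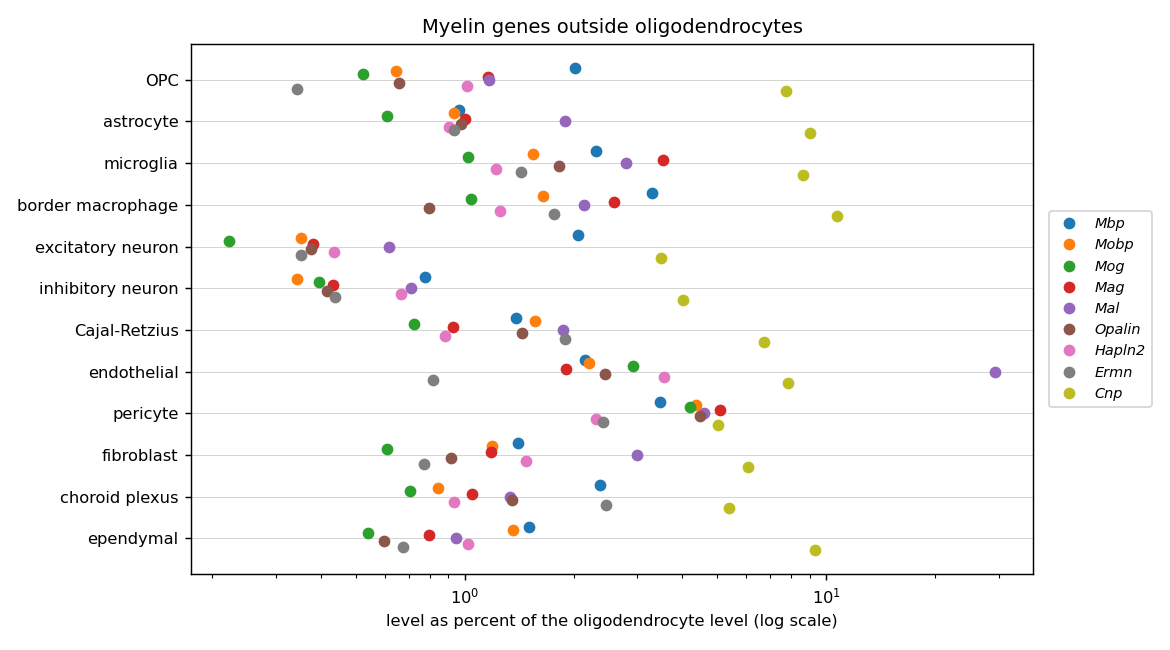
Level of each gene in 12 other classes of nuclei, as a percent of its mean level in oligodendrocytes (log axis). Each point is 1 gene, averaged over the libraries with at least 20 nuclei of the class. *Cnp* lies to the right of the other genes in most classes, *Mbp* lies to the right of 7 others in excitatory neurons, and *Mal* reaches 29.3% in endothelial cells.

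In the other classes tested 30.3% or more of all genes were called by genotype over both treatments, and in inhibitory neurons and precursors the share of members called was below that of all genes. In excitatory neurons 6 of 9 were called over both treatments, beside 57.8% of genes. *Cnp* (−0.83 ± 0.19, edgeR adjusted p = 0.00169), *Mal* (−0.79, 0.00126), *Hapln2* (−0.77, 0.00161), *Opalin* (−0.57, 0.0223) and *Ermn* (−0.55, 0.0123) were lower in KO. *Mbp* was higher (0.55 ± 0.12, 0.0016), and without TMM, which moved the median over all genes from −0.06 to −0.44, it was at 0.19 (edgeR adjusted p = 0.0552). Without TMM 8 members were called in this class, all lower, beside 69.5% of genes. *Cnp* had 8.08 to 12.9 CPM in 7 WT libraries and 2.71 to 5.16 CPM in KO libraries, and WT DMXAA replicate 3 had 2.85 CPM, within the KO range. Members called in both oligodendrocytes and excitatory neurons thus had the same sign there, for *Cnp*, *Mal*, *Hapln2*, *Ermn* and *Mbp*. The share of all genes called in both classes that had the same sign was not counted.

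In astrocytes 4 of 7 members tested were lower in KO (*Mal* −1.58, *Cnp* −0.73, *Mag* −0.55 and *Mbp* −0.54, beside 39.5% of genes), so that *Mbp* was lower there and higher in oligodendrocytes. In microglia *Mal* (−1.21) and *Mag* (−0.77) of 5 were lower (30.3% of genes), in inhibitory neurons *Mal* (−0.96) of 6 (48.9%), and in precursors 0 of 4 were called by edgeR (35.1%), with 2 at an unadjusted p under 0.05. Over all nuclei together, 6 of 9 were called (*Ermn*, *Hapln2*, *Cnp*, *Mal* and *Mog* lower and *Mbp* higher, beside 57.2% of genes). DMXAA gave 0 member calls in excitatory neurons by edgeR in WT (0.119% of genes, with 0 members at an unadjusted p under 0.05), in KO (0%, 0 members) and in the interaction (0.0283%, 0 members).

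Across the 16 libraries the level of a member in excitatory neurons was compared with the share of oligodendrocytes. Pearson's r ranged from −0.51 (*Mbp*) to 0.55 (*Mag*), and 0 of 9 passed after adjustment (permutation test, lowest adjusted p = 0.0934). Spearman's rho was 0.72 for *Mag* (permutation adjusted p = 0.0204). With the 2 libraries farthest from the median share left out, *Cnp* (r = 0.68) and *Mal* (r = 0.70) passed (both permutation adjusted p = 0.036), and by Spearman's rho *Mag*, *Cnp*, *Mal* and *Hapln2* did (all permutation adjusted p = 0.0122). Within the 8 WT and within the 8 KO libraries 0 passed by either measure.

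Among the genes most like the 9 over 13 classes, by Pearson correlation with the mean log2 profile of the members, were *Gm48508* (0.97), *4930420G21Rik* (0.96), *Galnt6* (0.96) and *Gm36855* (0.96). Each had its highest level in oligodendrocytes, at 70.4 to 564 CPM, and its next highest in pericytes or endothelial cells.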

How the data were processed

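Each deposited matrix holds unnormalized UMI counts by gene and barcode, which the authors made with Cell Ranger against mm10, counting pre-mRNA reads. The submitters' notes name Cell Ranger 3.1.0 and Seurat 3.0, whereas the matrix headers name Cell Ranger 6.1.2. Nuclei came from sorted, frozen hippocampus of the right hemisphere.

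Nuclei were kept with 200 to 4000 genes and at most 5% mitochondrial UMIs, and doublets were called from simulated pairs at 0.8% per 1000 barcodes and removed. The rest were clustered (leidenalg 0.10.2 on a neighbour graph, 2000 variable genes without the 9 members, 30 components, resolution 0.5). Clusters were named by marker lists, so class names are rebuilt. Counts were summed per library and class (at least 20 nuclei) and tested by the two-sided quasi-likelihood F test of edgeR 4.0.16 (R 4.3.3) over 16 libraries in 4 groups, after filterByExpr and TMM, with Benjamini-Hochberg adjustment over all genes. A gene was called at adjusted p under 0.05 and absolute log2 fold change over 0.1. CPM are counts per 1000000 UMIs of the class in a library. DESeq2 1.42.0 was an alternative. The fitting step was tested on simulated data. All 9 members passed the filter on low counts in oligodendrocytes, excitatory neurons and all nuclei, and 4 to 7 in other classes. In each pathway list, called genes were named, and under DMXAA the 2 with the largest change in WT, except that some genes are not reported here. The members and lists were chosen with earlier results of these data known. WT DMXAA replicate 3 was singled out after seeing the data, in oligodendrocytes as elsewhere. Alternatives without this library or without TMM in other classes and lists were also chosen after seeing the data. No promoter sequence of *Mbp* was used here.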

Additional observations from a re-analysis of the deposited data

Results flagged for a closer look

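Of 76 groups of 4 libraries checked, 8 held a library whose gap to the nearest other was large against the range of the group, where chance gives about 1 in 20. In oligodendrocytes, *Mbp* in WT vehicle replicate 3 was 3961 CPM against 4477 to 4519 CPM in the others. *Mobp* in WT vehicle replicate 4 was 1572 CPM against 1284 to 1323 CPM. *Opalin* in KO vehicle replicate 3 was 284 CPM against 306 to 309 CPM. *Ermn* in WT DMXAA replicate 3 was 87.9 CPM against 365 to 389.8 CPM. Oligodendrocytes were 12.5% of the nuclei of WT vehicle replicate 4 against 17.4% to 17.7%.

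In excitatory neurons, *Mobp* in KO vehicle replicate 2 was 6.13 CPM against 3.98 to 4.30 CPM. *Cnp* in WT DMXAA replicate 3 was 2.85 CPM against 11.3 to 12.9 CPM. *Hapln2* in WT vehicle replicate 4 was 1.2 CPM against 1.68 to 1.72 CPM. WT DMXAA replicate 3 and WT vehicle replicate 4 thus appear in 5 of the 8 cases, and the cause was not tested.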

How the results depend on the processing

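Of the log2 fold changes of members recomputed under another tool, scaling, filter, doublet rate, depth or choice of groups, 320 kept their sign and their side of the threshold, 13 turned sign, 8 gained a call and 1 lost it. With 1 library left out, 659 kept both, 41 turned, 7 gained and 13 lost a call. Among oligodendrocytes, the 5 members called in KO against WT with vehicle, all lower, became 9 (7 lower and 2 higher) when only the groups compared were fitted, and the count ranged from 3 to 9 when 1 library was left out (3 without WT vehicle replicate 2 or KO vehicle replicate 2, 9, again 7 lower and 2 higher, without WT DMXAA replicate 3). Under DMXAA in WT it ranged from 0 to 1. Without TMM, members called in KO against WT with vehicle went from 5 to 7 in oligodendrocytes, from 4 to 7 in excitatory neurons, from 1 to 2 in inhibitory neurons and from 1 to 0 in precursors, and over both treatments from 1 to 3 in inhibitory neurons and from 0 to 1 in precursors. The share of all genes called with vehicle moved with it, from 29.2% to 31.4% in oligodendrocytes, 49.8% to 64.0% in excitatory neurons, 38.2% to 48.1% in inhibitory neurons and 25.4% to 27.8% in precursors, and over both treatments from 48.9% to 56.4% in inhibitory neurons and 35.1% to 36.6% in precursors. Without WT DMXAA replicate 3 those over both treatments were 2 and 3, beside 59.8% and 48.4% of genes. The correlation of member levels with the oligodendrocyte share passed by Pearson's r for 2 members without the 2 libraries farthest from the median share and for 0 with all, and by Spearman's rho for 4 and 1. The cause was not tested for any of these.

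No member's fold change that was called in oligodendrocytes turned sign under these alternatives. For DMXAA in WT, *Mbp* was −0.11 without TMM, −0.017 without the filter on low counts and −0.00027 with only the groups compared. *Hapln2* was −0.082 without TMM, −0.00095 without the filter and −0.018 after thinning to 1000 UMIs, and *Mog* and *Ermn* were −0.077 and −0.043 without TMM. For DMXAA in KO, *Mog* was −0.0047 by DESeq2 and −0.0058 at the doubled doublet rate, and its interaction was 0.11 without TMM and 0.040 after thinning. *Mobp* in KO over both treatments was −0.0016 without TMM.

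With 1 library left out, the log2 fold change for DMXAA in WT ranged from −0.070 to 0.11 for *Mbp*, −0.097 to 0.23 for *Mog*, −0.075 to 0.36 for *Ermn*, −0.30 to 0.31 for *Hapln2*, −0.30 to 0.0023 for *Mag* (−0.14 with all libraries) and −0.23 to 0.18 for *Mal*. In KO it ranged from −0.060 to 0.027 for *Mog* and −0.056 to 0.12 for *Hapln2*. The interaction ranged from −0.011 to 0.16 for *Mbp*, −0.23 to 0.088 for *Mog*, −0.00075 to 0.42 for *Ermn* (0.30 with all libraries) and −0.26 to 0.33 for *Hapln2*.

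Over all genes, the 3 calls for DMXAA in WT were 22 by DESeq2, 9 without the filter, 0 after thinning or with only the groups compared, and 0 to 314 with 1 library left out (314 without WT DMXAA replicate 3). The 0 calls in KO became 5 with only the groups compared, and the 0 of the interaction 6 by DESeq2 and at most 1 with 1 library left out. The 3537 calls in KO with vehicle were 2355 after thinning, and 2163 (without KO vehicle replicate 2) to 5620 (without WT DMXAA replicate 3) with 1 library left out.

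No paired analysis was possible because the replicate numbers were given in accession order and pair no libraries. The labels name separate animals, so the mouse is the unit of the tests. In the main fits, edgeR's p-values rest on a spread between mice estimated over all 16 libraries in 4 groups. They do not rest on the compared groups alone. Class names were rebuilt from clusters that genotype fills unequally. Depth limits *Cnp*, *Ermn* and *Hapln2* most, which had a UMI in the fewest oligodendrocytes, and members tested in microglia, astrocytes and precursors were few because low counts failed the filter. The part of free RNA in the levels of other classes was not tested.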
